A study of Mus musculus with 26 samples.

Results

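The collagen alpha chain genes of mouse liver cells were followed through diet-induced bile duct injury on 1-colour Agilent arrays. Members were every gene whose name in the scanner files is Col, a number, the letter a and a number, which gave 41 genes read by 80 probes on 98 spots, of 41174 probes in all. All 41 genes were well above background on at least 2 arrays and entered the test of 26665 genes, through 74 of their probes. The series holds 26 samples, and the 20 with a scanner file were used, while the other 6 were not analysed here.

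All mice carried Foxl1-Cre and RosaYFP, so that cells in which the Foxl1 promoter had driven the recombinase, and their descendants, were labelled with yellow fluorescent protein (YFP), and they were 6 to 10 weeks of age. The label marks a history of promoter activity and not 1 cell type, and the level of the driver gene itself was not analysed here. DDC, a diet that injures bile ducts, was fed for 3, 7 or 14 days, and CD45-negative non-parenchymal cells were then sorted into YFP-positive and YFP-negative fractions. YFP-positive cells came on 4, 3 and 2 arrays at days 3, 7 and 14, and YFP-negative cells on 3 arrays at each of these days. Day 0 was total non-parenchymal cells of chow-fed mice on 2 arrays, neither sorted for YFP nor depleted of CD45, so the diet and the sort cannot be told apart in any comparison with it. The labels do not say whether samples came from separate animals, so the p-values measure the spread between these samples, which may be technical.

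Collagens are trimers of alpha chains with a repeat of glycine and other residues through the helical part. Fibrillar types I, III and V form the banded fibres of connective tissue and scar, with type I as the most abundant in fibrotic liver. Type IV forms the sheet of basement membranes, under bile duct epithelium and around vessels, and type VI forms beaded filaments that link fibres to it. In liver, hepatic stellate cells and portal fibroblasts are the main sources of fibrillar collagen in injury.

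Of the 74 probes, 3 lay in the glycine repeat itself, and they are shown because all 3 are the dimmer probe of a fibrillar gene and lay on the other side of 0, or farther above it, than the brightest probe. Capitals mark codons for glycine spaced 9 bases apart, and a run is 5 or more of these.
Col5a1, 6 glycine codons: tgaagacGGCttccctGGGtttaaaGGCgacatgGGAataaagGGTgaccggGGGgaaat
Col5a3, 7 glycine codons: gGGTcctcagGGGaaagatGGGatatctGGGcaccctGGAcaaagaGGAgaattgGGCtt
Col11a2, 6 glycine codons: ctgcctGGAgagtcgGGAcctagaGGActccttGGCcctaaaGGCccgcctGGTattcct
In the mm9 build the Col5a1 probe spans chr2:27842243-27844666 on the plus strand, the Col5a3 probe chr9:20590066-20590795 on the minus strand and the Col11a2 probe chr17:34189287-34189453 on the plus strand, each longer than the 60 bases of the probe. Between the fractions, over the mean of days, these probes stood at 0.58, 0.47 and 1.05 on the log2 scale (YFP-positive minus YFP-negative), against -3.83, -0.84 and 0.42 for the brightest probes of Col5a1, Col5a3 and Col11a2.

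A pair of Col2a1 probes is shown because they share 40 of 60 bases, in capitals, and still differed in direction.
Col2a1, brightest probe: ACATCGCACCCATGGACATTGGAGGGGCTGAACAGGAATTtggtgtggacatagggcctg
Col2a1, dimmer probe: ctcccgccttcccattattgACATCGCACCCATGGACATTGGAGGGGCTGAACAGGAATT
The brightest probe (chr15:97806485-97806544, minus strand, mm9) gave -2.41 between the fractions, and the dimmer one (chr15:97806505-97806564) gave 0.69. The first is printed at 10 spots of each array and the second at 1.

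Below, a level is the log2 processed signal of a gene's brightest probe minus the 75th percentile of its array, a difference is log2 of 1 group over another, and a gene passes at an adjusted p under 0.05 in limma after Benjamini-Hochberg adjustment over all 26665 genes. Depth is not defined for arrays, and their number limits the precision. Between 81.0 and 91.2 percent of spots were well above background on each array. The array of YFP-positive day 3 replicate 4 was the only array used here from its slide. It stood apart from the other 3 of its group in many collagens. The result without it is given too where leaving it out turned the direction or the call of a difference printed for a single gene. The same holds where leaving it out moved the fold by over 1.5 times.

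The contrast of YFP-positive against YFP-negative cells asks how collagen expression differs between the labelled cells and the other CD45-negative non-parenchymal cells of the injured liver. Over the mean of the 3 days, 5 of 41 collagens passed and all 5 were lower in YFP-positive cells: Col1a1, Col5a1, Col2a1, Col6a3 and Col15a1. Of all genes tested, 0.641 percent passed, and 0.428 percent passed as lower. At an unadjusted p under 0.05, 12 collagens were lower and 7 higher, where 7.22 and 14.2 percent of all genes were. The median over the 41 was -0.38, beside 0.062 over all genes, and 24 of 41 were below 0, beside 46.2 percent of all genes. These arrays hold cell mixtures, so fewer cells of a type and less RNA per cell cannot be told apart.

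Markers of other cells moved with these groups. Of 14 stellate cell and myofibroblast markers, 12 were below 0 between YFP-positive and YFP-negative cells over the mean of days, with a median of -2.45 and 5 past the threshold as lower, among them Lrat, the enzyme that stores retinoid, at -2.59 (adjusted p = 0.0235). Their summed level, in multiples of the array's 75th percentile, was 33.3 to 39.4 at day 0, 48.4 to 113 over the YFP-negative arrays and 44.5 to 75.3 over the YFP-positive ones, and all 14 were well above background on every array. All 10 biliary markers were above 0 in the same contrast, with a median of 2.59 and 2 past the threshold, and their summed level was 41.0 to 81.1 at day 0, 31.8 to 115 over the YFP-negative and 45.0 to 377 over the YFP-positive arrays. Their mean level was 4.60 on YFP-positive day 3 replicate 4 and 0.32 on replicate 3, the highest and the lowest of the YFP-positive arrays. Acta2, the smooth muscle actin of myofibroblasts, was at 0.079. The part of these cells in the collagen differences was not tested.

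Macrophage, endothelial, hepatocyte, leukocyte and mesothelial lists had medians of -0.56, -0.72, -0.18, -1.23 and -2.39 in the same contrast. None of their members passed. The mesothelial markers, of which 3 of 4 were below 0, had summed levels of 0.157 to 3.74 in YFP-negative and 0.0821 to 8.33 in YFP-positive cells.

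Col1a1 encodes the alpha-1 chain of type I collagen, and its probe lies at chr11:94813075-94813134 (mm9, plus strand). Its level in YFP-negative cells was 1.39, 3.41 and 2.18 at day 3, 2.66, 1.25 and -0.18 at day 7, and 2.76, 1.45 and 2.41 at day 14. YFP-positive cells had -0.089, 1.90, 1.49 and -7.21 at day 3, -1.11, -0.68 and -1.87 at day 7, and -7.66 and -6.10 at day 14, against -0.0028 and 0.39 at day 0. The lowest arrays were both of day 14 and replicate 4 of day 3, the last not well above background, while the other 3 day 3 arrays overlapped the range of all YFP-negative arrays. The difference over the mean of days was -4.95 (SE 0.99, adjusted p = 0.0362), a level 30.9-fold lower. Without YFP-positive day 3 replicate 4 it was -4.26 (SE 0.46, adjusted p = 0.00168), or 19.1-fold.

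Col5a1, the alpha-1 chain of type V collagen, which nucleates type I fibrils, had the lowest adjusted p of the fibrillar genes (probe chr2:27892892-27892951, mm9, plus strand). YFP-negative levels were 2.43, 4.37 and 3.07 at day 3, 3.03, 2.4 and 2.39 at day 7, and 3.35, 2.37 and 3.36 at day 14. In the YFP-positive fraction they were 2.48, 1.08, 1.5 and -2.91, then 0.88, 0.61 and -0.45, then -3.43 and -3.48, with 0.49 and 0.80 at day 0. Only YFP-positive day 3 replicate 1 reached the YFP-negative range. The fold was 14.2 lower (-3.83, SE 0.58, adjusted p = 0.0155).

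Col1a2 and Col3a1, the second chain of type I and the chain of type III collagen, missed the threshold. Col1a2 had 3.11, 4.94 and 3.88, then 4.16, 3.22 and 2.04, then 4.46, 3.64 and 4.46 in YFP-negative cells at days 3, 7 and 14. Its YFP-positive levels were 2.67, 4.24, 3.33 and -1.14, then 1.53, 2.02 and -0.54, then -0.87 and 0.71, with 1.96 and 2.78 at day 0. The fractions were apart at day 14, narrowly so at day 7, and overlapped at day 3. Over the mean of days the difference was -2.70 (SE 0.65, adjusted p = 0.0625).

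For Col3a1 the YFP-negative levels were 3.27, 4.72 and 4.01, then 4.49, 3.34 and 2.44, then 4.54, 3.74 and 4.39. YFP-positive cells gave 2.85, 3.65, 3.16 and -3.53, then 0.96, 2.24 and 1.11, then -3.18 and 0.068, with 2.09 and 2.59 at day 0. Here too the arrays of days 7 and 14 lay below every YFP-negative array of the same day, and at day 3 only replicate 2 was inside the YFP-negative range, with replicate 4 far below it. The difference was -3.41 (SE 0.83, adjusted p = 0.0635). Both genes passed when YFP-positive day 3 replicate 4 was left out, at -2.32 (adjusted p = 0.0364) and -2.85 (adjusted p = 0.0147).

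**Figure D1:**
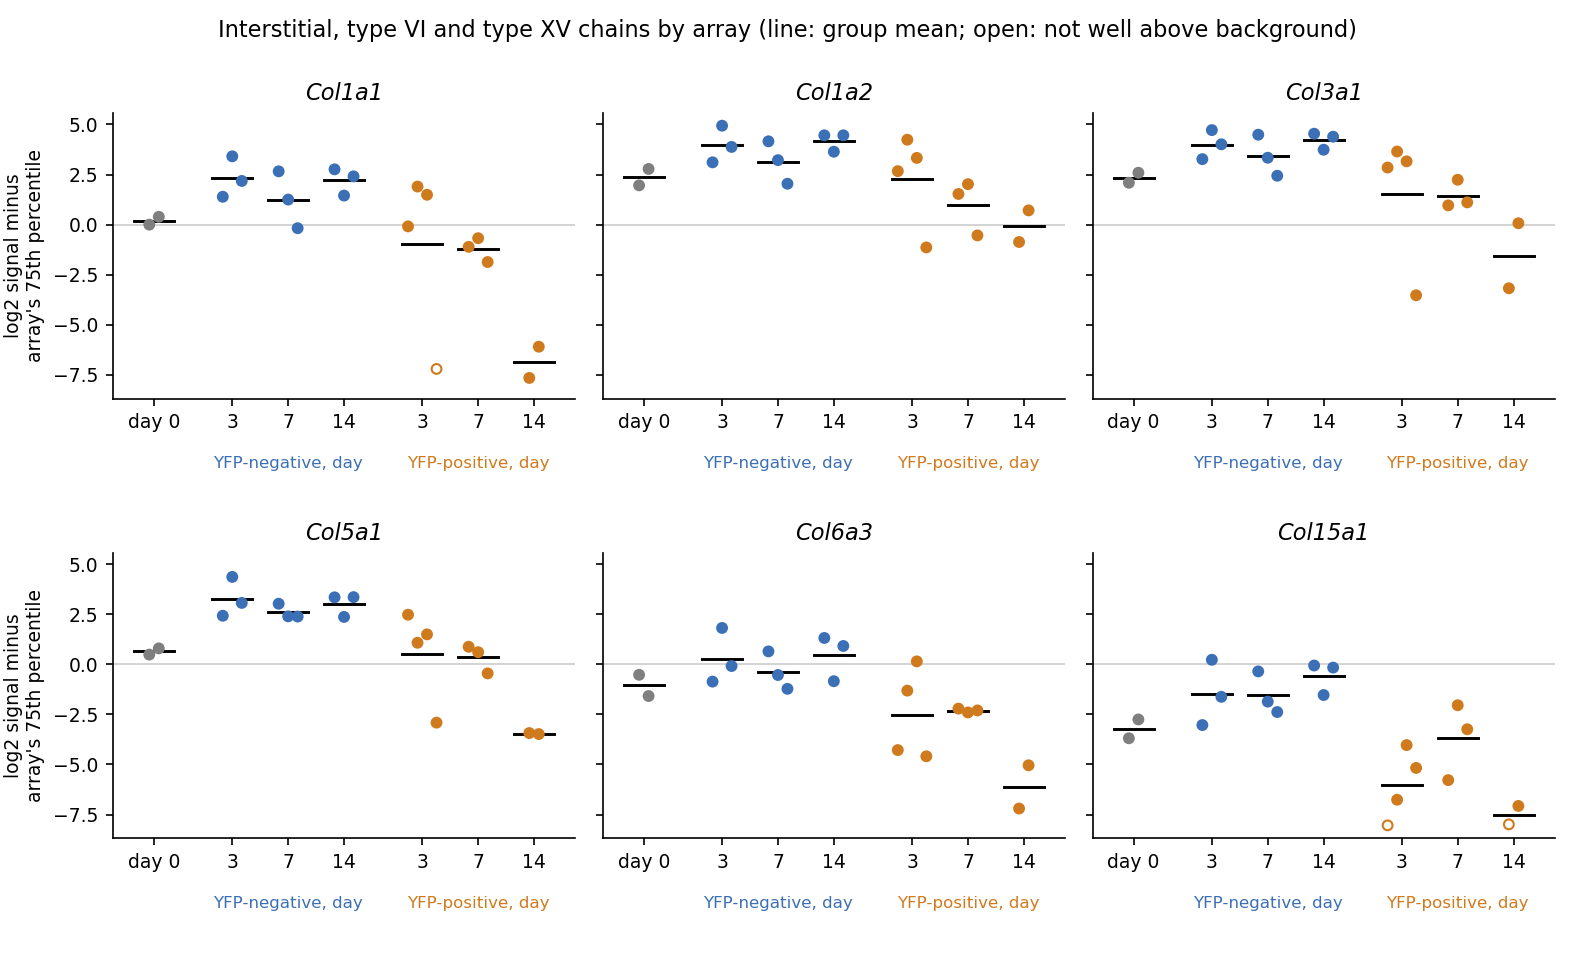
Level of 6 collagen genes on each array, as log2 signal minus the array's 75th percentile, at day 0 and in YFP-negative and YFP-positive cells at days 3, 7 and 14; points are arrays, lines group means, and open points were not well above background. For Col1a1 the YFP-positive day 14 arrays are at -7.66 and -6.10, below all 9 YFP-negative arrays.

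Among the other fibrillar genes, Col2a1, the chain of cartilage collagen, passed at -2.41 (SE 0.41, adjusted p = 0.0297). It had 0.45, 1.67 and 1, then 1.08, 0.14 and -0.44, then 1.54, 0.72 and 1.69 in YFP-negative cells. YFP-positive levels were -0.30, 0.89, 0.37 and -2.39, then -1.67, -0.85 and -1.94, then -3.28 and -2.30, so the fractions overlapped at day 3 and were apart at days 7 and 14. That call holds for 1 of 2 probes that share most of their bases. A further Col2a1 probe was well above background on 0 arrays and was left out by the filter. With all probes of a gene averaged, Col2a1 was at -0.86 (adjusted p = 0.133). Col5a2, the partner chain of Col5a1, was at -1.95 (adjusted p = 0.116), Col5a3 was at -0.84, and Col11a1, Col11a2, Col24a1 and Col27a1, chains of cartilage and minor fibrillar types, lay between -0.29 and 0.92. In all, 8 of 11 fibrillar genes were below 0, with a median of -1.95.

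All 4 type VI chains were below 0, with a median of -1.69, and 1 passed. Col6a3, the long chain of the trimer (probe chr1:92699157-92699216, mm9, minus strand), had -0.86, 1.82 and -0.081, then 0.65, -0.53 and -1.22, then 1.32, -0.84 and 0.92 in YFP-negative cells. YFP-positive cells had -4.28, -1.31, 0.15 and -4.59, then -2.21, -2.4 and -2.30, then -7.20 and -5.04, with -0.52 and -1.58 at day 0. The 3 YFP-positive day 7 arrays lay close together and below every YFP-negative array of that day. The fold was 13.6 lower (-3.77, SE 0.65, adjusted p = 0.0297). Col6a1 was at -2.52 (SE 0.62, adjusted p = 0.0654), Col6a2 at -0.78 and Col29a1, which RefSeq calls Col6a5, at -0.87.

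The 2 multiplexins, which carry sugar chains and sit at basement membrane zones, stood on opposite sides of 0. Col15a1, type XV (probe chr4:47325103-47325162, mm9, plus strand), had -3.03, 0.23 and -1.62, then -0.35, -1.86 and -2.38, then -0.056, -1.53 and -0.16 in YFP-negative cells. YFP-positive levels were -8.04, -6.76, -4.03 and -5.17, then -5.78, -2.04 and -3.24, then -7.99 and -7.07, with -3.69 and -2.75 at day 0. Replicate 1 of day 3 and replicate 1 of day 14 were not well above background, and the fractions did not overlap at days 3 and 14. Col15a1 was 23.3-fold lower (-4.54, SE 0.65, adjusted p = 0.0120), and without YFP-positive day 3 replicate 4 the difference was -4.64.

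Col18a1, type XVIII, whose C-terminal fragment is endostatin, had -1.51, 0.25 and -0.15, then -0.29, -0.99 and -1.79, then -0.69, -1.17 and 0.27 in YFP-negative cells. YFP-positive cells had 0.88, 0.62, -2.32 and 2.98, then 1.69, -0.41 and -0.043, then 1.33 and 1.13, with -1.24 and -1.46 at day 0. Both day 14 arrays were above the YFP-negative ones, and replicate 3 of day 3 was the lowest array of all. The difference was 1.4 (SE 0.58, adjusted p = 0.180), and of the 29 settings tried it passed in 1, without that replicate (1.72, adjusted p = 0.0382).

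**Figure D2:**
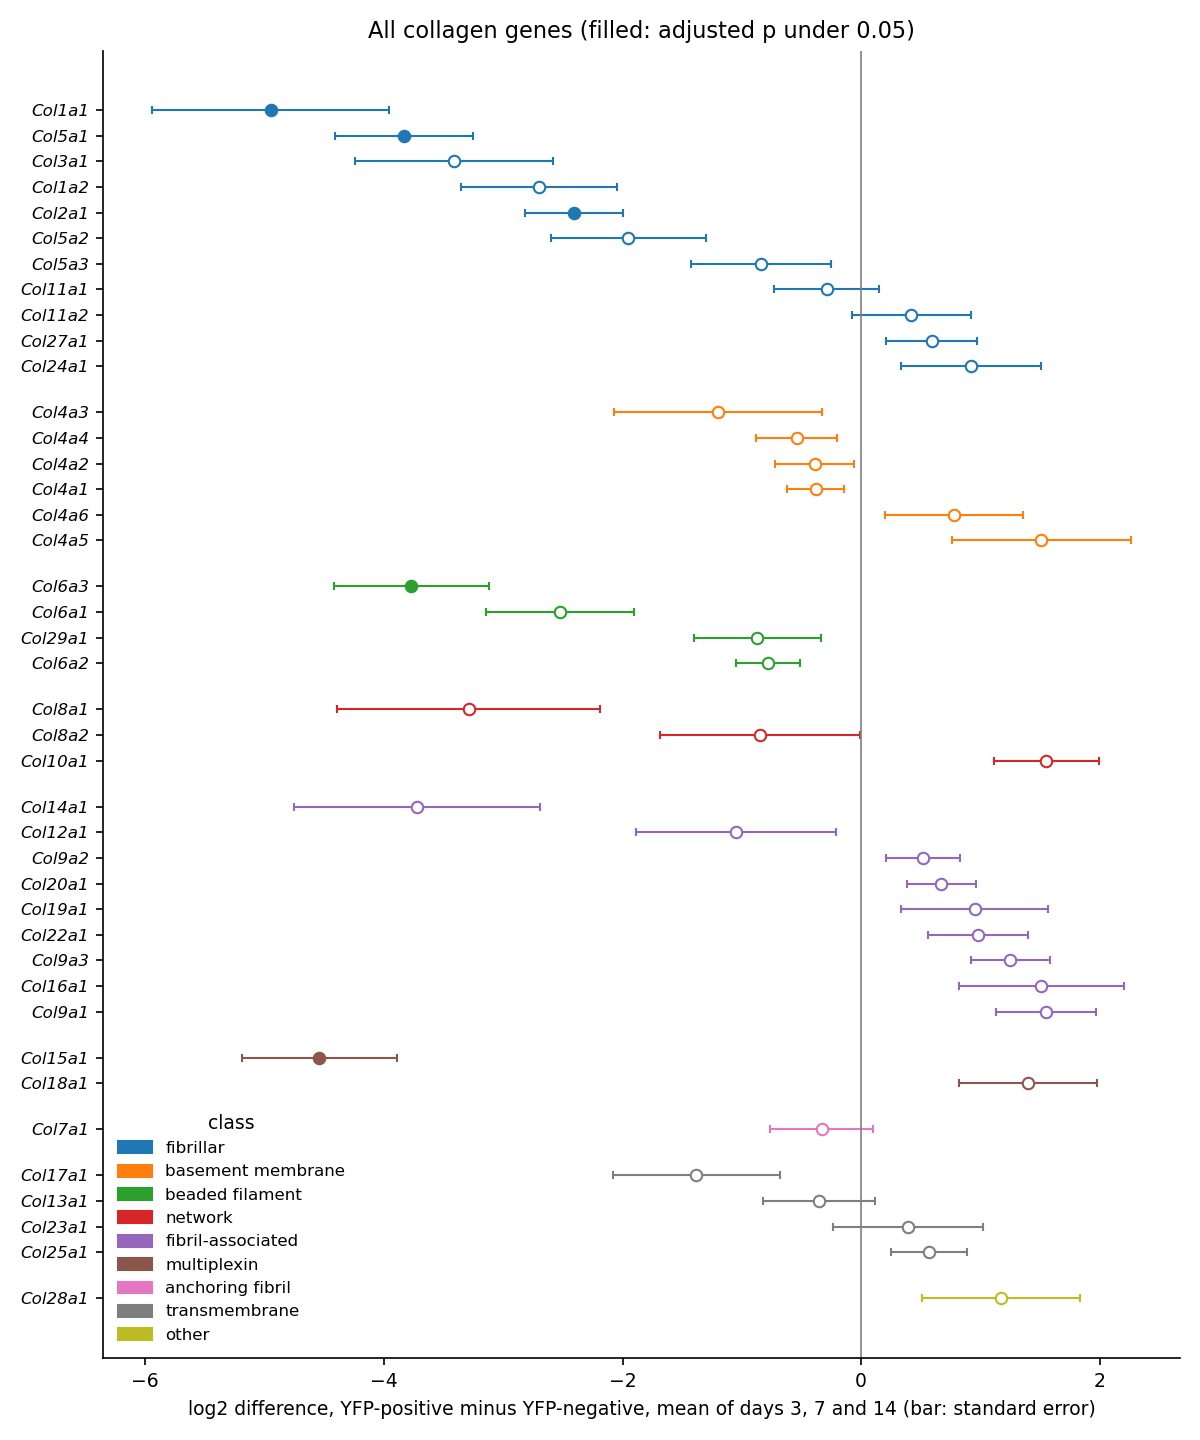
Difference of YFP-positive minus YFP-negative cells over the mean of days 3, 7 and 14, on the log2 scale with its standard error, for all 41 collagen genes grouped by class; filled points passed at an adjusted p under 0.05. The 5 filled points, from -4.95 for Col1a1 to -2.41 for Col2a1, are all below 0.

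Fibril-associated collagens, which bind to the surface of fibrils, were split. Col14a1, type XIV, had -0.59, 1.4 and 1.53, then 1.44, -0.12 and 0.40, then 2.04, 0.44 and 1.31 in YFP-negative cells, and -1.32, -0.41, -0.79 and -8.91, then -0.41, -0.10 and -2.69, then -6.78 and -2.46 in YFP-positive cells, with -1.77 and -0.25 at day 0. At -8.91 replicate 4 of day 3 was not well above background, and the fractions were apart at day 14 only. The difference of Col14a1 was -3.72 (SE 1.03, adjusted p = 0.0812), and -3.05 (adjusted p = 0.0369) without that array. In contrast, 7 of 9 members of the class were above 0, with a median of 0.95. Col9a1 (1.55, adjusted p = 0.0764), Col9a3 (1.25, adjusted p = 0.0748) and Col16a1 (1.51, adjusted p = 0.220) were the highest, and none of these passed. Col9a2, Col19a1, Col20a1 and Col22a1 lay between 0.52 and 0.98, and Col12a1 was at -1.05.

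Of 6 type IV chains, 4 were below 0 with the brightest probe of each gene and 2 of 6 with the mean of its probes, at medians of -0.39 and 0.19, and none passed. Col4a1 and Col4a2, whose products make up the common trimer of basement membranes, had small differences. Col4a1 had 5.27, 5.08 and 4.69, then 4.71, 3.73 and 4.32, then 4.99, 4.88 and 4.72 in YFP-negative cells, and 4.63, 4.60, 4.83 and 3.26, then 4.26, 4.22 and 3.89, then 4.68 and 4.38 in YFP-positive cells. With 5.17 and 4.73 at day 0, all 20 arrays lay between 3.26 and 5.27, the lowest being YFP-positive day 3 replicate 4. The fractions overlapped at days 3 and 7, and at day 14 both YFP-positive arrays were just below the 3 YFP-negative ones. The difference was -0.38 (SE 0.24, adjusted p = 0.364).

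Col4a2 had 2.10, 2.32 and 3.93, then 2.26, 0.82 and 0.62, then 3.06, 3.02 and 2.26 in YFP-negative cells. Its YFP-positive levels were 1.65, 1.77, 3.04 and 1.55, then 1.1, 1.68 and 1.45, then 2.38 and 2.04, with 1.56 and 2.14 at day 0. All lay within the YFP-negative range over all days. By day, the arrays at 1.65, 1.77 and 1.55 (day 3) and 2.04 (day 14) were below every YFP-negative array of their day. The difference was -0.39 (SE 0.33, adjusted p = 0.507). Col4a5, the alpha-5 chain, was the highest of the class at 1.51 (SE 0.75, adjusted p = 0.259): YFP-negative arrays ran from -4.40 to -0.62, with a mean of -2.57, and YFP-positive arrays from -5.27 to 1.05, with a mean of -1.06. Col4a6 was at 0.78, and Col4a3 and Col4a4 at -1.20 and -0.54 with probes that disagreed in sign.

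**Figure D3:**
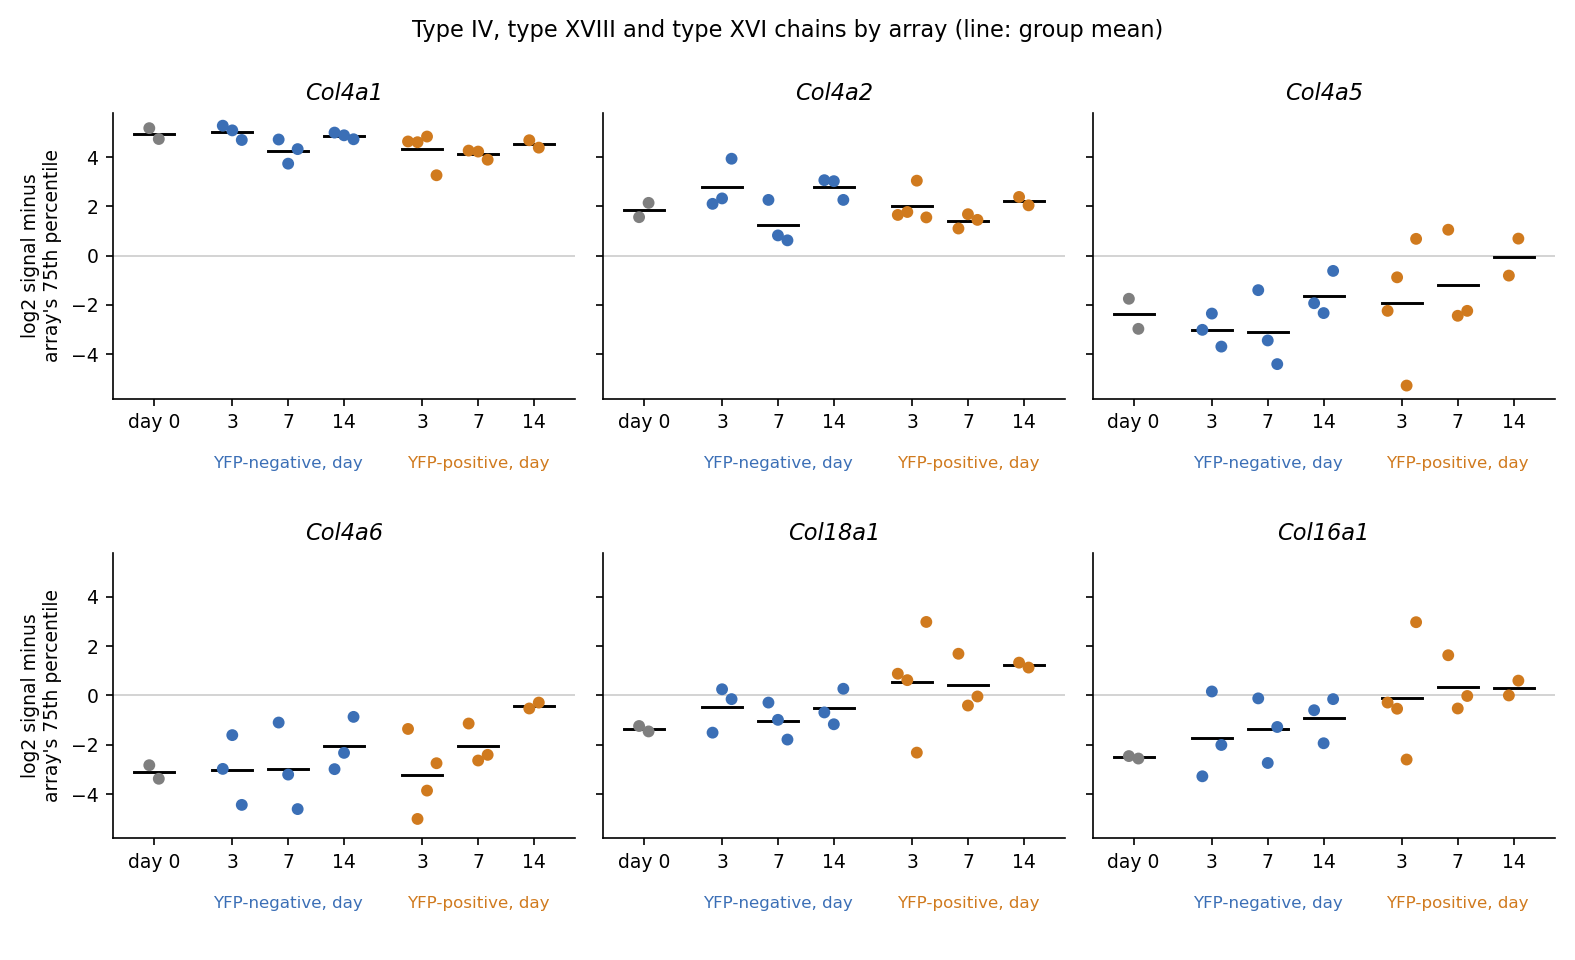
Level of 4 type IV chains, Col18a1 and Col16a1 on each array, as log2 signal minus the array's 75th percentile, in the groups and colours of the plot of interstitial chains; points are arrays and lines group means. Col4a1 stays between 3.26 and 5.27 on all arrays, and Col18a1 is above the YFP-negative arrays on both YFP-positive day 14 arrays.

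Of the network formers, Col8a1, type VIII, found in vessel walls, was at -3.29 (SE 1.1, adjusted p = 0.119). Its YFP-positive range of -8.08 to 1.79 was set at the low end by day 3 replicate 4, not well above background, and without that array the difference was -2.57 (SE 0.63, adjusted p = 0.0728). Col10a1, the collagen of growing cartilage, was at 1.55 (adjusted p = 0.0859), and Col8a2 at -0.85. Among transmembrane collagens Col17a1, a chain of the hemidesmosome, was at -1.38 (SE 0.70, adjusted p = 0.268), Col13a1, Col23a1 and Col25a1 lay between -0.35 and 0.57, and Col7a1, the anchoring fibril chain, was at -0.33. Col28a1 was not well above background on any YFP-negative array of days 7 and 14, and was so on 1 of 2 YFP-positive arrays of day 14, so no fold is given for it.

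Leaving out single arrays moved the count of 5. It was 0 without YFP-positive day 14 replicate 1, a fit in which 0.06 percent of all genes passed and the 5 genes kept differences of -4.69 to -2.25 with adjusted p-values of 0.0505 to 0.0799, and 2 (Col5a1 and Col15a1) without YFP-negative day 3 replicate 4, day 7 replicate 1 or day 14 replicate 1, where 0.0863, 0.0713 and 0.075 percent of all genes did. It was 12 without YFP-positive day 3 replicate 3, with 3 of them higher (Col9a1, Col9a3 and Col18a1), and 8, all lower, without YFP-positive day 3 replicate 4, beside 4.57 and 0.701 percent of all genes. Under quantile normalization 11 passed, 8 lower and 3 higher (Col9a1, Col9a3 and Col10a1), where the main scaling gave 5 lower and 0 higher. Under normexp background correction 3 passed, and Col15a1 was at -1.80 (adjusted p = 0.378) and Col6a3 at -2.78 (adjusted p = 0.0530). Over days 3 and 7 alone, a choice made after seeing the data, none passed, with Col1a1 at -2.88 (adjusted p = 0.405), Col5a1 at -2.51 (adjusted p = 0.257) and Col15a1 at -3.34 (adjusted p = 0.210).

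Slides were a batch in part crossed with the groups. With slide as a fixed block none of the 41 passed, and the differences of the 5 genes were -4.05 to -1.97 with adjusted p-values of 0.0788 to 0.457. Over all genes 2 passed in that fit, against 171 without the block. Within slides that held both fractions, Col1a1 differed by -1.48 on slide 1 (day 3) and by -3.35 and -1.69 on slides 4 and 7 (day 7). Col5a1 differed by 0.053, -2.42 and -2.84, Col6a3 by -3.41, -3.04 and -1.07, and Col15a1 by -5.01, -1.69 and -0.87 on the same slides. So 1 of these 12 pairs was not lower in YFP-positive cells. Among the arrays used, no slide held both fractions at day 14.

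By day, none of the 41 passed between the fractions at days 3, 7 or 14, where 0, 0 and 0.0225 percent of all genes did. At an unadjusted p under 0.05 there were 11, 3 and 14 collagens, beside 7.85, 5.29 and 12.3 percent of all genes. Col1a1 was at -3.30 (SE 1.56) at day 3, -2.47 (SE 1.67) at day 7 and -9.09 (SE 1.87, adjusted p = 0.116) at day 14. Col5a1 was at -2.75, -2.26 and -6.49 (adjusted p = 0.0719), Col6a3 at -2.80, -1.93 and -6.58 (adjusted p = 0.0903), and Col15a1 at -4.52, -2.16 and -6.95 (adjusted p = 0.0719). With the brightest probe, each was below 0 on all 3 days and farthest from it at day 14. Dimmer probes at day 14 gave -3.9 and -2.06 for Col1a1, 0.65 for Col5a1, -4.91 for Col6a3 and -7.05 for Col15a1. The change of the contrast from day 3 to day 14 was -5.79 (SE 2.44) for Col1a1, -3.74 (SE 1.43) for Col5a1 and -2.42 (SE 1.60) for Col15a1, and no collagen passed that test, where 0 percent of all genes did. None passed the test of any difference among the 7 groups either, where 0.03 percent of all genes did.

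The day 14 count rested on an array of another day, all groups sharing 1 estimate of the spread. Without YFP-positive day 3 replicate 4, 7 collagens passed at day 14 with their brightest probes (Col1a1, Col2a1, Col3a1, Col5a1, Col6a3, Col14a1 and Col15a1). For Col2a1 a dimmer probe gave 0.61 at day 14, while those of Col3a1 gave -4.19 and -5.56 and that of Col14a1 -2.25. In the fit without that replicate, 0.229 percent of all genes passed at day 14. The day 3 differences were then -1.22 (SE 0.76) for Col1a1, -0.78 (SE 0.72) for Col3a1, -1.60 (SE 0.53) for Col5a1 and -2.10 (SE 1.02) for Col6a3. The change from day 3 to day 14 was then -7.86 (SE 1.14, adjusted p = 0.0585) for Col1a1 and -4.88 (SE 0.79, adjusted p = 0.150) for Col5a1, and still no collagen passed that test. At day 14 the arrays of the fractions did not overlap for 16 collagens lower and 13 higher in YFP-positive cells, 39.0 and 31.7 percent of the family, beside 13.7 and 20.5 percent of all genes. At day 7 these counts were 6 lower and 2 higher, beside 5.08 and 4.29 percent, and the 6 were Col1a1, Col1a2, Col2a1, Col3a1, Col5a1 and Col6a3.

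Against day 0, none of the 41 passed in any of the 6 sorted groups, where 0.0525, 0.0525 and 0.0375 percent of all genes did in YFP-negative and 0.0563, 0.0375 and 0.146 percent in YFP-positive cells at days 3, 7 and 14, and the 6 comparisons share the same 2 day 0 arrays. In YFP-negative cells the group means of 4 main fibrillar chains lay above day 0, none past the threshold. Col5a1 was 2.64, 1.97 and 2.38 above it at days 3, 7 and 14 (SE 1.09 each), with every YFP-negative array above both day 0 arrays. Col1a1 was 2.13, 1.05 and 2.01 above (SE 1.87 each), Col3a1 1.66, 1.08 and 1.88, and Col1a2 1.60, 0.77 and 1.81, with 1 day 7 array of each within or below the day 0 range. The lowest adjusted p-values in these were 0.418 for Col5a1, 0.557 for Col1a2 and 0.647 for Col3a1. The dimmer Col5a1 probe had mean levels of -0.99, -0.69 and -1.01 at days 3, 7 and 14, below its -0.51 at day 0. Dimmer Col1a1 probes had means above those of day 0 on each day. At an unadjusted p under 0.05, 1, 1 and 6 collagens differed in YFP-negative cells at days 3, 7 and 14, beside 6.51, 8.63 and 11.8 percent of all genes.

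In YFP-positive cells at day 3 the direction against day 0 rested on replicate 4 with the brightest probes. Col1a1 was at -1.17, Col1a2 at -0.10, Col3a1 at -0.81 and Col5a1 at -0.10 with it, and at 0.91, 1.04, 0.88 and 1.04 without it, none past the threshold either way. It rested on the probe too. With replicate 4 kept, dimmer Col1a1 probes had mean levels of -0.017 and -0.48, above their -1.17 and -1.62 at day 0. The dimmer Col5a1 probe had -0.15, above its -0.51 at day 0. At day 14 Col1a1 was -7.07 (SE 2.05, adjusted p = 0.196), 135-fold lower than day 0, Col5a1 -4.10 (adjusted p = 0.198) and Col6a3 -5.07 (adjusted p = 0.162). The size and direction depended on the probe. Of the dimmer Col1a1 probes, 1 had a mean level of -3 at day 14 against -1.17 at day 0. Another had -1.22 against -1.62, and the dimmer Col5a1 probe -0.37 against -0.51, so these were not lower. Without YFP-positive day 3 replicate 4, Col1a1 (adjusted p = 0.0045) and Col5a1 (adjusted p = 0.0118) passed at day 14, where 0.45 percent of all genes did. Col18a1 was 2.58 (adjusted p = 0.432) and Col4a6 2.70 (adjusted p = 0.419) above day 0. At day 7 all 11 fibrillar genes were below 0, as were 34 of all 41 collagens and 63.8 percent of all genes. The fibrillar median was -1, beside -0.35 over all genes. At an unadjusted p under 0.05 there were 1, 2 and 9 collagens at days 3, 7 and 14, beside 10.2, 11.6 and 11.5 percent of all genes.

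Between day 14 and day 3, no collagen passed in either fraction, where 0 percent of all genes did in YFP-negative and 0.0263 percent in YFP-positive cells. The YFP-negative differences were small beside their errors, with Col1a1 at -0.12 (SE 1.67), Col5a1 at -0.26 (SE 0.98) and Col3a1 at 0.23 (SE 1.41). In YFP-positive cells Col1a1 was at -5.90 (SE 1.77, adjusted p = 0.479) and Col5a1 at -4 (SE 1.04, adjusted p = 0.324). Without YFP-positive day 3 replicate 4, Col1a1 (-7.98), Col3a1 (-4.78) and Col5a1 (-5.15) passed in this comparison, where 0.131 percent of all genes did. With all arrays kept, dimmer Col1a1 probes went from mean levels of -0.017 to -3 and from -0.48 to -1.22 between days 3 and 14. The dimmer Col5a1 probe went from -0.15 to -0.37.

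Fibrillar and basement membrane chains were then set against each other on every array, as the mean level of the 11 fibrillar genes minus that of the 6 type IV genes, relative to the day 0 mean. The day 0 arrays were at -0.31 and 0.31. YFP-negative arrays were at 0.88, 0.84 and 1.24 at day 3, 0.21, 1.41 and 1.31 at day 7, and 0.58, -0.07 and 0.46 at day 14. YFP-positive arrays were at 0.20, 1.52, 0.97 and -2.47 at day 3, -1.12, 0.084 and -0.61 at day 7, and -2.80 and -1.48 at day 14. From day 7 on, every YFP-positive array was below every YFP-negative array of its day, and at day 3 only replicates 1 and 4 were.

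By group mean the balance was 0.99 ± 0.22, 0.98 ± 0.67 and 0.32 ± 0.35 in YFP-negative cells (SD, n = 3 each), and 0.054 ± 1.77 (n = 4), -0.55 ± 0.60 (n = 3) and -2.14 ± 0.93 (n = 2) in YFP-positive cells. Averaged over days, YFP-positive minus YFP-negative was -1.64, beside an SD within groups of 0.98, and -1.23 with days 3 and 7 only. The fibrillar means were 0.59, 0.28 and 0.66 in YFP-negative cells and the type IV means -0.40, -0.69 and 0.34. In YFP-positive cells the fibrillar means were -0.45, -0.95 and -2.10 and the type IV means -0.50, -0.40 and 0.036. Without replicate 4 the day 3 fibrillar mean was 0.27, the type IV mean -0.63 and the balance 0.90 ± 0.66 (SD, n = 3), so the sign of that fibrillar mean rested on 1 array. The mean of all 6 sorted groups was -0.058 relative to day 0, within that spread. No p is given for these means, since the classes were chosen with results known.

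**Figure D4:**
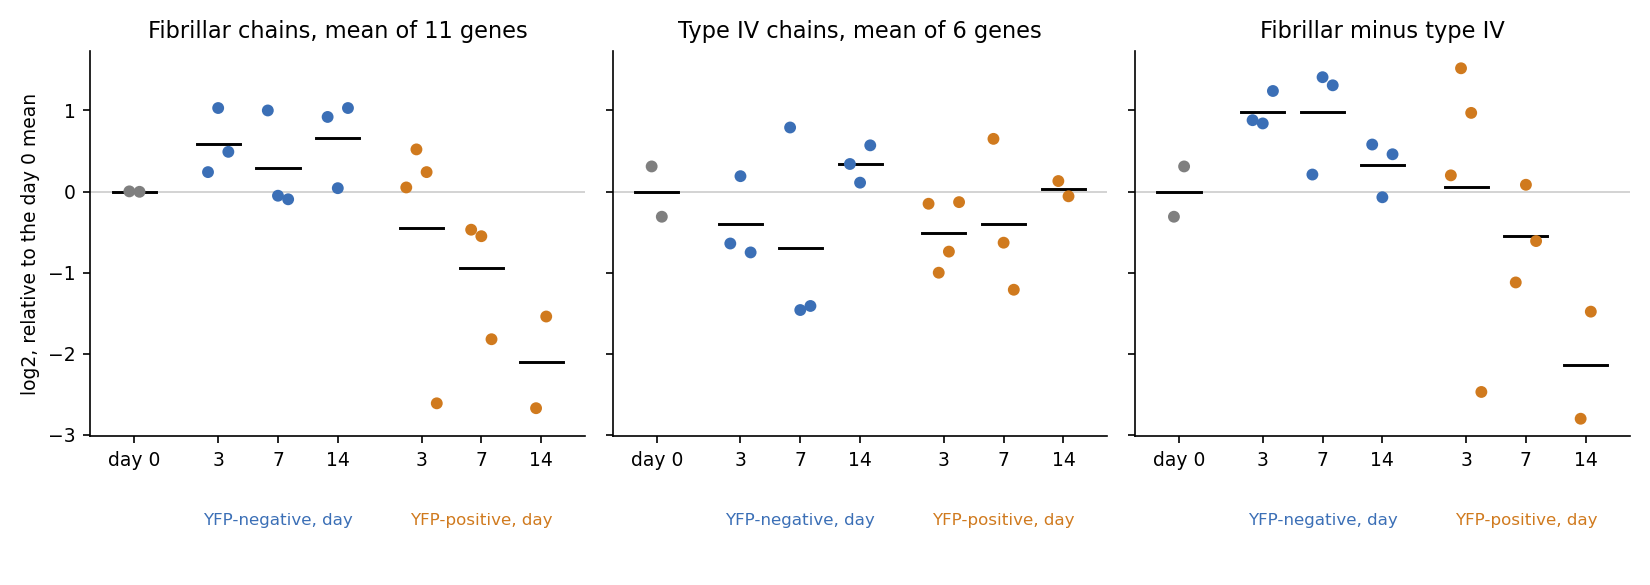
Mean level of the 11 fibrillar genes, of the 6 type IV genes and their difference on each array, on the log2 scale relative to the day 0 mean, by group and day; points are arrays and lines group means. Both YFP-positive day 14 arrays (-2.80 and -1.48) and day 3 replicate 4 (-2.47) are the lowest in the difference.

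Of 31 genes that make collagen, for chain modification, folding, export, processing and cross-linking, 1 passed, lower, and 10 were above 0, with a median of -0.28 beside 0.062 over all genes. That gene was Loxl1, a lysyl oxidase that cross-links matrix, at -3.15 (SE 0.47, adjusted p = 0.0155), with levels of -5.73 to -1.03 in YFP-negative and -7.29 to -4.01 in YFP-positive cells. Tll1, a protease that trims procollagen, was at -3.56 (adjusted p = 0.0782). Its YFP-positive levels reached -10.11 at day 3 and -10.03 at day 14. Col28a1 was not well above background on YFP-negative day 14 arrays at -10.31 to -9.07, so the size for Tll1 is uncertain. Adamts2, which removes the N-propeptide of types I and III, was at -2.65 (adjusted p = 0.0763). Serpinh1, the collagen chaperone of the endoplasmic reticulum, was at -0.14 (SE 0.19), and P4hb, a subunit of prolyl hydroxylase, at 0.075 (SE 0.21), both named after their values were seen.

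Among 10 collagen receptors, 1 passed. Mrc2, an endocytic receptor that takes up collagen, was lower in YFP-positive cells at -1.77 (SE 0.36, adjusted p = 0.0375). Both discoidin domain receptors stood far from 0 in opposite directions: Ddr1, the epithelial one, at 2.10 (SE 0.49, adjusted p = 0.0584) and Ddr2, the mesenchymal one, at -2.07 (SE 0.68, adjusted p = 0.112). Itga2, the alpha-2 integrin chain that pairs with beta-1 to bind collagen, was at 1.98 (SE 0.72, adjusted p = 0.140).

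Probes of 1 gene did not always agree. Of 27 collagens with more than 1 probe above the filter, 6 had a probe of the opposite sign to the brightest (Col2a1, Col4a3, Col4a4, Col5a1, Col5a3 and Col24a1). Col1a1 had 3, at -4.95, -2.23 and -1.37, and only the brightest, printed at 10 spots, passed over all 39615 probes (adjusted p of 0.0350, 0.0887 and 0.0714). With all probes of a gene averaged, Col1a1 was at -2.85 (adjusted p = 0.0372) and Col5a1 at -1.62 (adjusted p = 0.0301). Col3a1 was at -3.41, -3.60 and -4.59, with the last 2 past the threshold over probes (0.0359 and 0.0242), and Col6a3 at -3.77 and -3.68, with both past it. The 10 spots of the Col1a1 probe had a median SD of 0.110 log2 within an array, and 0.536 on YFP-positive day 3 replicate 4.

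**Figure D5:**
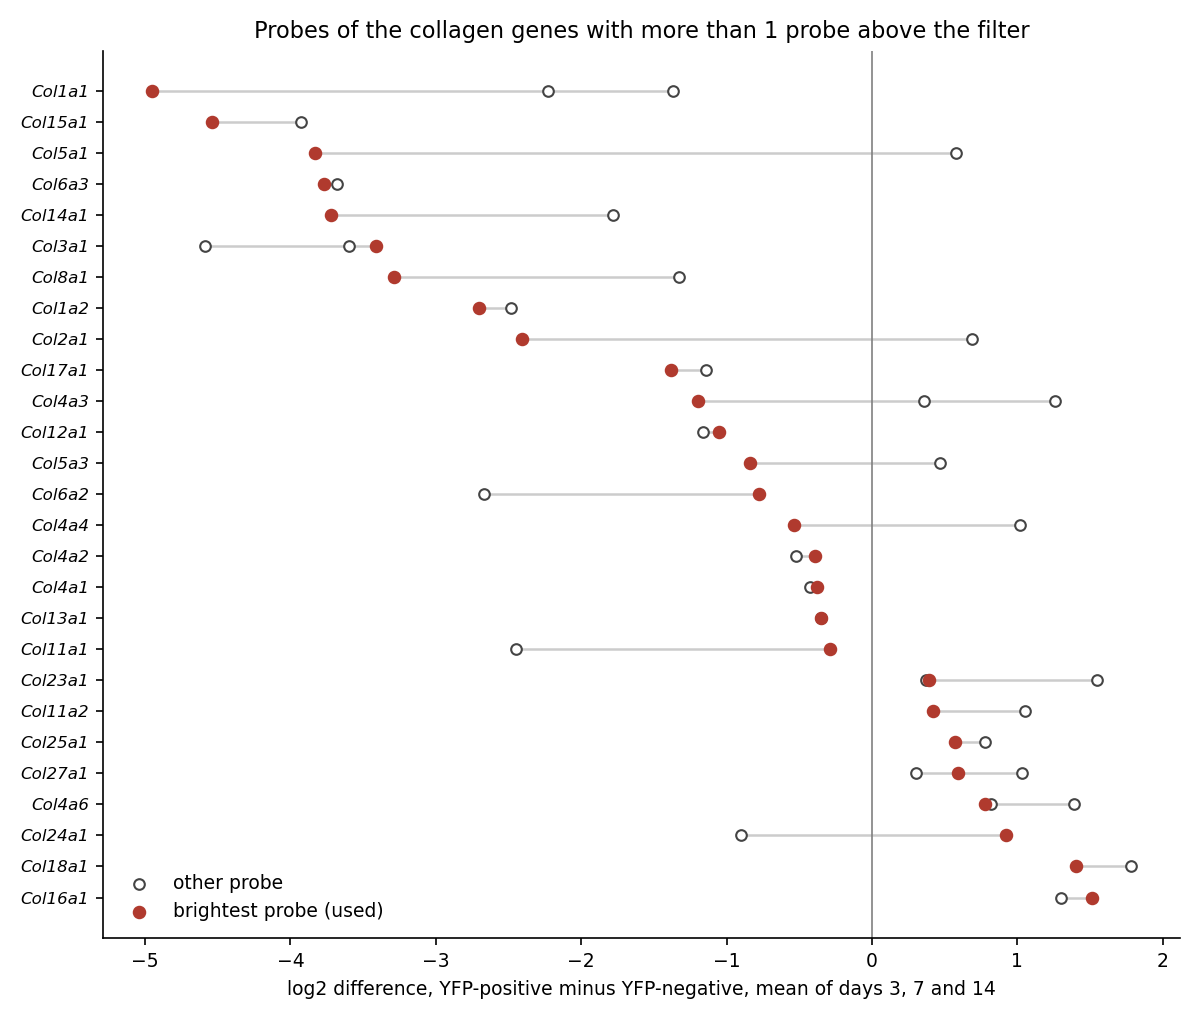
Difference of YFP-positive minus YFP-negative cells over the mean of days, on the log2 scale, for each probe of the 27 collagen genes with several probes above the filter; filled points are the brightest probe, used for the gene, and open points the others. Col6a3 and Col1a2 have probes side by side, while those of Col5a1 (-3.83 and 0.58) and Col2a1 (-2.41 and 0.69) lie on both sides of 0.

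The authors' deposited table is a set of signed folds and false discovery rates against day 0. Its method is not given in the sources used here, and it was read for the brightest probe of each gene. At a false discovery rate under 5 percent, the authors' deposited table listed Col5a1 as higher in YFP-negative cells at days 3 and 7, and Col1a1, Col3a1, Col6a1 and Col12a1 as higher at day 14, where 3.37, 3.62 and 1.64 percent of its rows were under that rate. For YFP-positive cells the authors' deposited table listed 0, 5 and 10 collagens at days 3, 7 and 14, beside 1.94, 10.6 and 16.3 percent of its rows. Of the 10, the authors' deposited table had Col4a5, Col4a6, Col12a1, Col16a1 and Col18a1 higher and Col5a1, Col5a2, Col8a1, Col15a1 and Col17a1 lower. Dimmer probes in the authors' deposited table were under that rate for further collagens. In YFP-negative cells these were Col12a1 at day 3, Col6a2 and Col6a3 at day 7, and Col6a3 and Col11a1 at day 14, all higher. In YFP-positive cells they were Col13a1, lower at day 7, and Col4a3, higher at day 14. Of the 41 genes in the authors' deposited table, the fit here passed none in any of these 6 comparisons. That fit used 2 of the 4 day 0 samples and 20 of 26 samples in all. The deposited calls may rest on other samples, so the difference between them is not a test of either.

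Promoters of Col1a2 and Col3a1, which stood low on the same arrays, are shown, as the 250 bases before the start in RefSeq (GRCm38.p6), with motifs in capitals. RefSeq windows matched 33 of the 41 genes, in 36 windows.
Col1a2, chr6:4505368-4505617, plus strand: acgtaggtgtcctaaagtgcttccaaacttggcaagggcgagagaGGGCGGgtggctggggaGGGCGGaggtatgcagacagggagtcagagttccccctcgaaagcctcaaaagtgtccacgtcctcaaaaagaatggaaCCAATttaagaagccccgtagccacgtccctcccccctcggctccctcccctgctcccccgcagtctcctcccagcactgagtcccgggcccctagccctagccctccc
Col3a1, chr1:45311288-45311537, plus strand: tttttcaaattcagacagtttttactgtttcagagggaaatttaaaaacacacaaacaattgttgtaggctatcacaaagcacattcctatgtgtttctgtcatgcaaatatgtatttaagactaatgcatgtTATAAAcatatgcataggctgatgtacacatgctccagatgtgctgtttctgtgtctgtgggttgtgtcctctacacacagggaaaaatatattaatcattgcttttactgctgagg
The Col1a2 window holds a CCAAT box 109 bases before the start and a pair of GC boxes (GGGCGG) at 205 and 188, and the Col3a1 window a TATA box (TATAAA) at 117. Searched on both strands, CCAAT was in 33.3 percent of the collagen windows and 33.8 percent of all 32851 windows, TATAAA in 13.9 and 12.4 percent, and GGGCGG in 55.6 and 32.7 percent. A match is a description of these letters only. The start sites of Col4a1 and Col4a2 face away from each other so closely that their 300-base windows share 78 bases.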

How the data were processed

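RNA of sorted and total liver non-parenchymal cells was amplified, labelled with Cy3 and hybridised to 1-colour Agilent arrays (design 014868), per the labels' protocols. The deposited intensity values come from Agilent Feature Extraction, version 10.5.1.1 per the file headers and 9.53 per the submitters' processing notes. The authors' deposited table gives signed folds and false discovery rates in percent against day 0. Here log2 of the processed signal was scaled by subtracting each array's 75th percentile. Control spots and outlier flags were left out, spots of a probe were averaged, and the brightest probe well above background on at least 2 arrays stood for a gene. A single limma fit (3.58.1, R 4.3.3) covered the 7 groups, with 13 residual and 2.32 prior degrees of freedom, and its code was tested on simulated data. The p-values were Benjamini-Hochberg adjusted over 26665 genes. The members and lists were chosen with earlier results of these data known. Named collagens were those passing in any comparison, a fixed list, and the member of each class with the largest difference. The fixed list was Col1a1, Col1a2, Col3a1, Col4a1, Col4a2, Col6a1, Col14a1 and Col18a1, which are not in every class the brightest members. Pathway genes were those passing and the 3 largest differences of each list. Other members are named to account for the family, with their values seen. Alternatives were normexp background correction, quantile normalization, no filter, the mean of a gene's probes, slide as a fixed or random block, the replicate number as a block, each array left out, and, chosen after seeing the data, days 3 and 7 only and every probe fitted by itself.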

Additional observations from a re-analysis of the deposited data

Results flagged for a closer look

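The 4 YFP-positive day 3 arrays were examined in 16 measures, the 15 named collagens and the fibrillar minus type IV balance, for an array far from its nearest neighbour relative to the group's range, which chance gives in about 1 of 20 groups. In 4 of the 16 an array stood apart. The 16 measures share the same 4 arrays, so they are not independent and this count cannot be set against 1 of 20. Groups of fewer than 4 arrays were not examined. Col14a1 was at -8.91 on replicate 4, not well above background, with the other 3 between -1.32 and -0.41. Col3a1 was at -3.53 on the same array, with the others between 2.85 and 3.65. Col4a1 was at 3.26 on it, with the others between 4.60 and 4.83. Col4a2 stood apart on replicate 3, at 3.04, with the others between 1.55 and 1.77.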

How the results depend on the processing

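The count of 5 collagens over the mean of days, main value, was 3 under normexp (Col1a1, Col2a1 and Col5a1), 11 under quantile normalization, 0 with slide as a fixed block, 0 with days 3 and 7 only (chosen after seeing the data), and 0 to 12 when single arrays were left out. It was 5 with no filter, the mean of probes and slide as a random block. Under quantile normalization 777 of all genes were called higher and 307 lower, against 57 and 114. The replicate numbers did not pair the samples (correlations of deviations -0.239 to 0.39 over 8 pairs). With the replicate block the count was 5, with Col1a2 in place of Col6a3, and 41 genes passed in all, against 171. With slide as a fixed block, counts that were 0 became 1 at day 14 between fractions, 1 for YFP-positive day 14 against day 0, 2 for YFP-positive day 14 against day 3 and 1 for any difference among the 7 groups. Leaving out single arrays gave 0 to 7, 0 to 2, 0 to 3 and 0 to 4 in these, and 0 in the other comparisons. The fibrillar minus type IV difference ranged from -1.86 to -1.36 between fractions and from -0.37 to 0.25 against day 0 when arrays were left out. In YFP-positive against YFP-negative cells over the mean of days, none of the 15 named collagens changed sign in any of 29 settings. The setting with every probe fitted by itself kept the brightest probe of each gene, so no sign could change there. Dimmer probes of Col5a1 (0.58) and Col2a1 (0.69) lay above 0, and no setting used them alone. In YFP-positive day 3 against day 0, Col1a1, Col1a2, Col3a1 and Col5a1 turned from below to above 0 without YFP-positive day 3 replicate 4. The cause of these changes was not tested. Groups of 2 to 4 arrays limit every comparison, most of all those with day 0 or YFP-positive day 14.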
